A study of Mus musculus with 111 samples.

Results

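The genes described here are 149 gene rows of mouse tuberomammillary nucleus (TMN) RNA-seq libraries whose level was higher in the dark phase than in the light phase of control mice. They were chosen by a fixed rule on the control libraries alone. Counts were divided by the total over gene rows and scaled to the same sum in each library (CPM), and 3515 of the 54087 gene names had a mean of at least 20 CPM in controls and a name outside the clone-based and mitochondrial ones. These were ranked by a t statistic with unequal variances of log2(CPM + 1) between 25 dark libraries, at zeitgeber time (ZT) 16 and 20, and 24 light libraries, at ZT4 and ZT8. The 150 highest ranks were taken, and Gpt2 was left out by name, which left 149. The statistic ran from 3.23 to 5.67 over the members. Because that contrast chose the members, their dark and light levels in controls are given as a description with no test. Tests were made on Q5A libraries, which the choice did not use, or at ZT0 and ZT12, which the statistic did not use. Control libraries at ZT0 and ZT12 counted only in the mean of at least 20 CPM.

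TMN tissue came from adult male and female C57BL/6 mice (C57BL/6J in the study's methods) that had received an adeno-associated virus (AAV) into the TMN some weeks earlier. GFP mice carried the empty vector, H3.3 mice a vector for the histone variant H3.3 of wild type, and Q5A mice a vector for H3.3 whose glutamine 5 is replaced by alanine. All 3 vectors also carried GFP, so every mouse used here was injected and expressed GFP. GFP and H3.3 are the controls and gave 71 libraries, Q5A gave 39, and each library came from the tissue of 1 mouse. The labels give that tissue as a TMN punch and the study's methods as a dissection of the GFP-lit area, and in either case cells without the virus can be included. The mice were kept in a light-dark cycle with lights on at ZT0, tissue was taken every 4 h at ZT0, 4, 8, 12, 16 and 20, and the libraries belong to 3 cohorts. Cohort 1 held 17 of the dark and 18 of the light control libraries, and 8 of the dark and 9 of the light Q5A libraries.

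Mice are active mainly in the dark. The TMN holds the histamine neurons of the brain, which fire most during wakefulness, and these neurons sit among astrocytes, oligodendrocytes and other hypothalamic neurons. Daily rhythms of RNA come from the clock of each cell, from feeding, temperature and hormones, and from neural activity itself. Glutamine 5 of H3 can carry a monoamine such as histamine or serotonin, and an alanine at that position cannot.

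Depth and strand bear on every value below. Gene rows held 673306 to 3375352 counts per library, and every member had at least 1 read in each of the 110 libraries, with a median count per library from 22 to 686.5 and 62 of 149 members under 50. The rows of the H3.3 genes did not separate the viruses. H3f3b, for example, had 17.4 ± 8.0 CPM (SD, n = 39) in H3.3, 17.2 ± 7.4 CPM (SD, n = 32) in GFP and 17.7 ± 8.0 CPM (SD, n = 39) in Q5A, and H3f3a had 3.52 ± 2.2, 3.36 ± 2.1 and 4.45 ± 2.5 CPM. Reads were counted on the strand that the kit's first read does not follow, so that a row with an annotated exon of another gene on the opposite strand can hold that gene's reads. Most reads of a gene's own transcript would likewise fall outside its row, and 3.49 to 5.63% of uniquely placed reads were counted in gene rows. The levels below are those of rows as deposited, and how far they follow the mRNA of the named gene was not tested. Of the 3515 ranked rows, 2042 had such an exon, 1414 had none and 59 had no position in the annotation. The rows with no opposite exon held a share of the gene counts that differed between libraries. It was above 20% in 5 libraries, namely cohort 2 replicate 1 of Q5A at ZT12 (27.8%) and of GFP at ZT12 (25.6%), cohort 1 replicates 2 and 3 of H3.3 at ZT20 (22.2% and 21.96%), and cohort 3 replicate 1 of Q5A at ZT4 (20.05%). Several member scores and median differences that rest on these 5 libraries are given with and without them, and the others include them.

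The members as a group were 0.48 higher on the log2(CPM + 1) scale in the dark than in the light in controls. Their mean over the 149 genes, called the member score below, was 5.82 ± 0.37 (SD, n = 25) in dark and 5.33 ± 0.31 (SD, n = 24) in light control libraries. The difference was 0.47 within GFP and 0.49 within H3.3, 0.52 within cohort 1 and 0.39 within cohorts 2 and 3. Without the control libraries above 20% it was 0.41, with 23 dark libraries left, and within H3.3 it was then 0.36. Gene by gene the difference ran from 0.15 to 1.04 with a median of 0.47, and it was above 0 in 149 of 149 members in GFP and in H3.3 taken alone, which the choice on both together largely fixes. Over all 3515 ranked genes the median was 0.081 and 61.6% were above 0.

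The ZT at which the members were highest differed between the control viruses. In GFP, 110 of 149 members had their highest mean at ZT12, a time the statistic of the rule did not use. In H3.3 only 1 member did, and 125 were highest at ZT20. The member score at ZT12 was 5.97 ± 0.48 (SD, n = 6) in GFP and 5.35 ± 0.16 (SD, n = 7) in H3.3, and at ZT20 it was 5.68 ± 0.25 (SD, n = 5) and 6.08 ± 0.53 (SD, n = 6). Each of these high means includes libraries above 20%, and without them the score was 5.83 ± 0.37 (SD, n = 5) in GFP at ZT12 and 5.78 ± 0.32 (SD, n = 4) in H3.3 at ZT20. All ranked genes leaned the same way, with 47.6% highest at ZT12 in GFP and 42.9% at ZT20 in H3.3. The lowest mean was at ZT8 for 125 of 149 members in GFP, and for 34.5% of all ranked genes. In H3.3 it was at ZT12 for 64 members and at ZT8 for 46, and for 26.9% and 12.8% of all ranked genes.

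**Figure D1:**
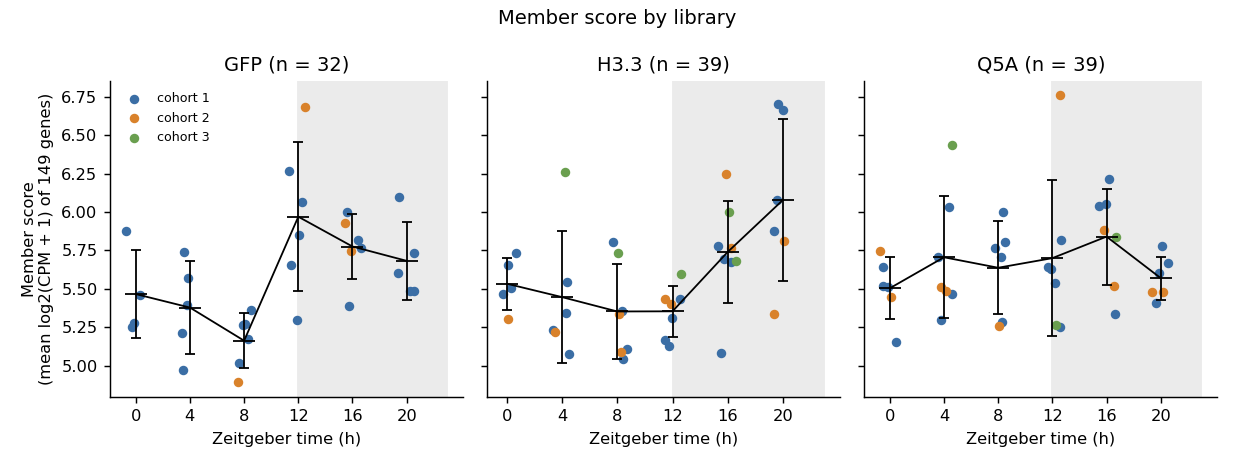
Member score, the mean log2(CPM + 1) of the 149 genes, in each library against zeitgeber time, for GFP, H3.3 and Q5A. Points are libraries coloured by cohort, bars are the mean and SD of a group, and grey marks the dark phase. The statistic of the rule used ZT4, 8, 16 and 20 of GFP and H3.3. The Q5A means stay between 5.50 and 5.84.

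**Figure D2:**
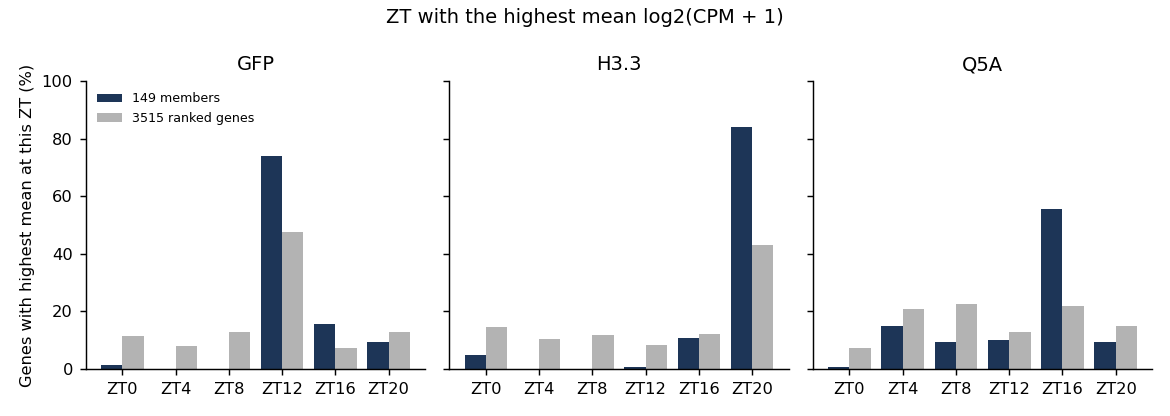
Percentage of genes whose mean log2(CPM + 1) was highest at each ZT, for the 149 members and for all 3515 ranked genes. GFP members cluster at ZT12 (73.8%), H3.3 members at ZT20 (83.9%) and Q5A members at ZT16 (55.7%).

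The 5 members with the largest statistic have different known roles. Tiam2, a guanine nucleotide exchange factor for Rac, led with a lowest, median and highest level of 26.5, 40.5 and 49.9 CPM in light control libraries and 34.7, 53.6 and 76.2 CPM in dark ones. Usp34, a large deubiquitinase on chromosome 11 (23306895 to 23490560, plus strand, build GRCm38), followed with 280, 349.4 and 448.4 CPM in light and 307.2, 488.1 and 683.6 CPM in dark. The ranges overlapped for both genes, and 22 of 25 dark libraries were above the light median for each. Spop, an adaptor of cullin ubiquitin ligases, Ddx42, an RNA helicase, and Aktip, a protein of vesicle trafficking, completed the first 5, with differences of 0.53, 0.33 and 0.35 on the log2 scale. At the limit of the rule, Rab7, a GTPase of late endosomes, Itsn1, an endocytic scaffold, and Nell2, a secreted glycoprotein, were the last inside, with differences of 0.34, 0.38 and 0.48. Rab6b, Clcn1 and Ogfrl1 were the first outside, with 0.52, 0.28 and 0.43. The statistic was 3.23 for the last member and 3.22 for Rab6b, so that nothing separates the 2 sides.

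The most abundant members were Wdr61, a subunit of the PAF1 transcription complex (515.3 CPM over controls), Hnrnpu, a nuclear RNA-binding protein (431.4 CPM), the chaperone gene Hsp90ab1 (420.3 CPM), Usp34 (415.0 CPM) and Spock2, which encodes a proteoglycan of the extracellular matrix (314.3 CPM). These are levels of rows and not per length. Hsp90ab1 ran from 217.4 to 828.9 CPM in light and from 250.5 to 934.6 CPM in dark control libraries, around medians of 323.1 and 490.5. Hnrnpu moved least of all members, with medians of 402.1 and 455.3 CPM. Adcy1, a calcium-stimulated adenylyl cyclase, had the largest on that scale, 1.04, with a median of 10.02 CPM in light and 19.6 CPM in dark. Fam107a, an actin-associated protein known to respond to stress, had 0.96, with medians of 15.5 and 36.9 CPM.

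Members shared exon sequence with a gene on the opposite strand less often than the other ranked genes, given here as a description. This was so for 53 of the 148 members with a position (35.8%), against 60.1% of the other ranked genes, and at least 20% of the exon bases were shared in 3.38% against 16.02%. Rows with no opposite exon were members in 6.72% of cases and rows with one in 2.60%. Among all ranked rows, 82.0% of those with no opposite exon were higher in dark control libraries, against 47.8% of those with one. In other respects the members resembled the rest, with 146 of 148 protein coding, a median exon length of 5020 against 4908 bases and a median level of 44.0 against 46.9 CPM.

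The member score moved with the share of counts in rows with no opposite exon. That share was 13.5% ± 3.3 (SD, n = 25) in dark and 11.4% ± 2.3 (SD, n = 24) in light control libraries. In Q5A it was 12.8% ± 2.2 (SD, n = 13) in dark and 13.5% ± 2.9 (SD, n = 13) in light. Computed without the members, the share and the score had a Pearson r of 0.93 and a Spearman rho of 0.94 over 110 libraries, with r = 0.94 without the 2 libraries farthest from the median share. The r was 0.92 in GFP, 0.94 in H3.3, 0.94 in Q5A and 0.92 over the 105 libraries at 20% or less. It was 0.88 for the 53 members that do have an opposite exon. Both measures come from the same counts, and the part of the share in the results was not tested. When each library was scaled to the rows with no opposite exon, the median of all ranked genes shifted from 0.081 to -0.14 in the control contrast and that of the members from 0.47 to 0.26, and 146 of 149 members were still higher in dark. Choosing again after this scaling gave 150 genes of which 92 were members, led by Glul, Kcnj10, Fam107a, Spock2 and Hsp90ab1.

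**Figure D3:**
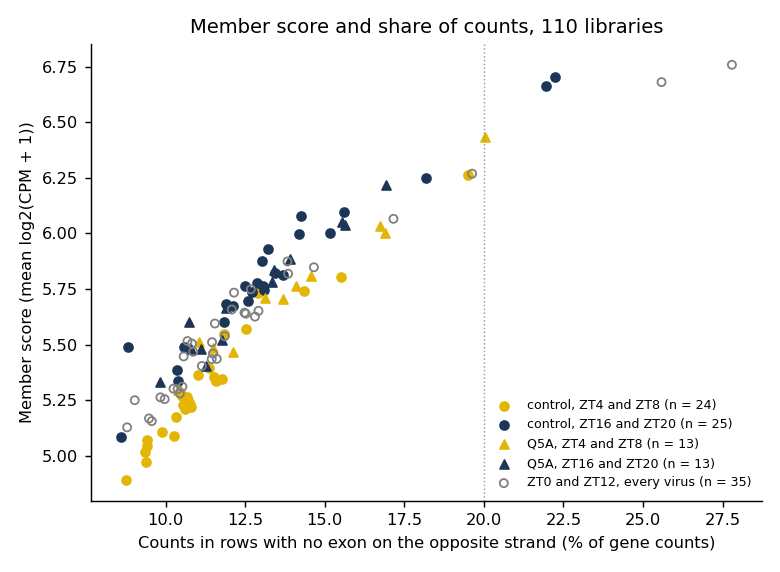
Member score (mean log2(CPM + 1) of the 149 genes) against the share of gene counts in rows with no annotated exon on the opposite strand, in percent, for 110 libraries. Colour gives the phase, triangles are Q5A, open circles are ZT0 and ZT12, and the dotted line marks 20%; the libraries lie along 1 rising band, with dark control libraries mostly on its upper edge.

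The first test asked whether the members were also higher in the dark in Q5A mice, whose libraries the rule did not use. As a group they were slightly higher, by an amount that changed with the scaling. The member score was 5.72 ± 0.28 (SD, n = 13) in dark and 5.67 ± 0.34 (SD, n = 13) in light Q5A libraries, a difference of 0.041 that lies well within the spread. Without the light library above 20% it was 0.105. With each library scaled to the rows with no opposite exon it was 0.109, where the SD was 0.072 in dark and 0.078 in light. The score in light Q5A libraries was above the 5.33 of light control libraries, and that in dark ones was below the 5.82 of dark control libraries, both given as values only since those control libraries chose the members. In edgeR's quasi-likelihood test with Benjamini-Hochberg adjustment over 11706 genes, 1 of 149 members passed an adjusted p under 0.05, where 0.53% of all genes did. The median log2 difference of the members was 0.028, against -0.023 over all genes tested, and 83 of 149 were above 0. At an unadjusted p under 0.05, 19 members (12.8%) were higher in dark, against 7.57% of all genes, and 3 were lower.

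That small difference depended on the libraries included. In cohort 1 alone, with 8 dark and 9 light Q5A libraries, 21 members passed (14.1%) where 10.3% of all genes did, 19 of them higher in dark (12.8% against 6.16%), with a median over the members of 0.13. Without both Q5A libraries above 20%, at ZT4 and ZT12, the median was 0.11 and 2 members passed, where 111 of 11321 genes passed. With all libraries scaled to the rows with no opposite exon the median was 0.12 against 0.058 over all genes. Again 2 members passed, where 28 of 11706 genes passed. Within cohorts 2 and 3 the dark minus light difference of the score was -0.0325, over 5 dark and 4 light libraries. The light library above 20%, at ZT4, had a score of 6.44. The other light libraries had 5.26 to 5.51, below the dark mean of 5.64, so the negative sign rests on that library.

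**Figure D4:**
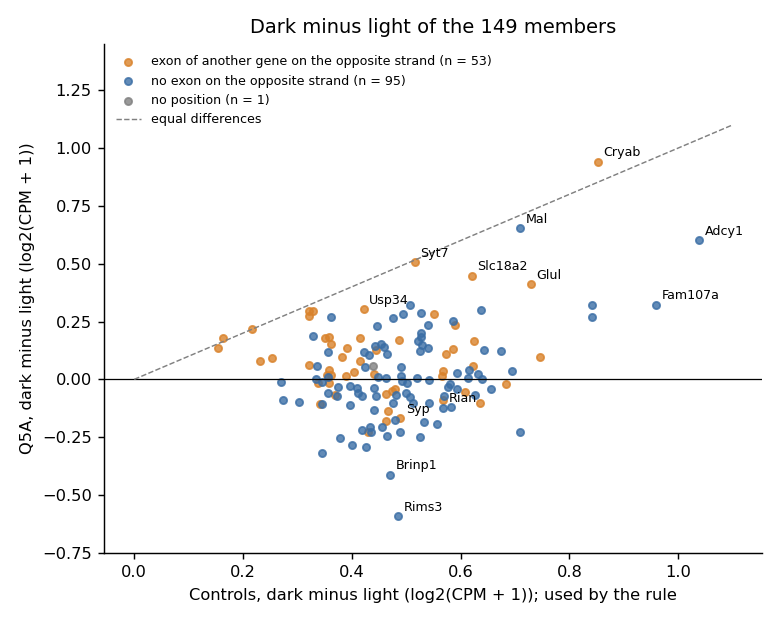
Dark minus light difference in log2(CPM + 1) of each of the 149 members, in controls on the horizontal axis, which chose the members, and in Q5A on the vertical axis. Colours mark members with and without an exon of another gene on the opposite strand, and the dashed line marks equal differences; the members spread around 0 in Q5A, and Cryab is the highest at 0.94.

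Cryab, which encodes the small heat shock protein alpha B-crystallin and is abundant in oligodendrocytes, was the member that passed. It lies on chromosome 9 (50751325 to 50756636, plus strand), and 17.0% of its exon bases lie opposite exons of Hspb2. The level ran from 7.67 to 52.6 CPM with a median of 17.7 in light Q5A libraries and from 17.2 to 104.9 CPM with a median of 43.2 in dark ones. The ranges overlapped, and 12 of 13 dark libraries were above the light median. The log2 difference was 1.03 ± 0.25 (SE), with an edgeR adjusted p of 0.0442. With each of the 26 libraries left out in turn it stayed between 0.87 and 1.19, but the adjusted p ran from 0.0215 to 0.128 and the call was lost in 15 of 26. The largest loss came without cohort 1 replicate 1 of Q5A at ZT16, the highest dark library. With the replicate numbers as a block in the fit, neither Cryab nor any other member passed. In controls the medians were 17.2 CPM in light and 32.0 CPM in dark.

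Cryab moved with the markers of oligodendrocytes. The 12 markers of that cell type summed to 1106 to 3264 CPM (median 1621) in light and 1313 to 6309 CPM (median 1968) in dark Q5A libraries. The sum of 6309 CPM was in cohort 1 replicate 1 of Q5A at ZT16, which also had the highest Cryab level of the dark Q5A libraries. In dark and light control libraries the medians were 2242 and 1563 CPM. The 11 markers tested all had positive log2 differences in Q5A, none of them past the threshold and 7 at an unadjusted p under 0.05. Cldn11 was at 1.07 ± 0.29 (SE, edgeR adjusted p = 0.0641) and Mbp at 0.96 ± 0.28 (adjusted p = 0.0904). Mog, Cnp and Opalin had the smallest differences, at 0.097, 0.11 and 0.072. The log2 level of Cryab and the log2 sum of the markers without Mal had r = 0.85 and rho = 0.84 over 110 libraries, and r = 0.83 without the 2 farthest. Mal, a proteolipid of myelin that is both a member and a marker, had a median of 31.7 CPM in light and 37.3 CPM in dark Q5A libraries, a log2 difference of 0.81 ± 0.28 (SE, edgeR adjusted p = 0.156). In dissected tissue more cells of a type and more RNA per cell cannot be told apart, and the part of oligodendrocyte RNA in these values was not tested.

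Usp34 had the next smallest p in Q5A. Its level ran from 301.5 to 606.1 CPM with a median of 378.2 in light and from 382.2 to 613.1 CPM with a median of 472.1 in dark. The dark libraries were above the light median in 13 of 13 cases. The log2 difference was 0.35 ± 0.11 (SE) with an edgeR adjusted p of 0.128, which was 0.0305 with the share of counts as a covariate and to 0.0185 in cohort 1. Of its exon bases, 11.6% lie opposite exons of Ahsa2. Unlike Cryab, Usp34 had no strong relation to the oligodendrocyte sum (r = 0.095 and rho = 0.15 over 110 libraries).

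Glul, the glutamine synthetase of astrocytes, ran from 72.5 to 243.3 CPM (median 119.4) in light and from 87.6 to 336.9 CPM (median 138.2) in dark Q5A libraries. The log2 difference was 0.46 ± 0.16 (SE) with an edgeR adjusted p of 0.151, and it passed the threshold with the share as a covariate (adjusted p = 0.00445), with scaling to the rows with no opposite exon (0.0380) and without both Q5A libraries above 20% (0.0274). Like Cryab, Glul moved with the oligodendrocyte sum, with r = 0.79 and rho = 0.77 over 110 libraries and r = 0.77 without the 2 farthest, and the part of those cells was not tested. Slc18a2, the vesicular transporter that loads histamine and other monoamines, had medians of 54.4 CPM in light and 74.9 CPM in dark, and ranges of 24.8 to 81.7 and 33.6 to 142.6 CPM. Its log2 difference was 0.53 ± 0.19 (SE, edgeR adjusted p = 0.164). In light and dark control libraries the medians were 44.6 and 69.7 CPM.

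**Figure D5:**
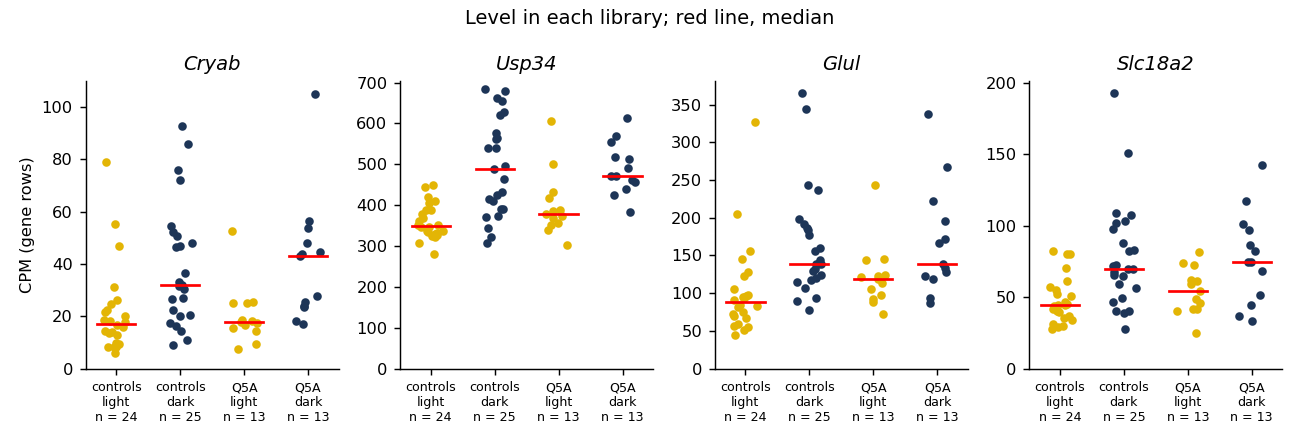
Level in CPM of Cryab, Usp34, Glul and Slc18a2 in each light (ZT4 and ZT8) and dark (ZT16 and ZT20) library of controls and Q5A, with the median as a red line. Dark and light libraries overlap in each pair, and the dark median is the higher of the 2 for all 4 genes in both arms.

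The other small p-values in Q5A belonged to genes of several functions. Prpf38b, a splicing factor, was 0.31 ± 0.10 (SE) higher in dark on the log2 scale, Sulf2, a sulfatase of heparan sulfate, 0.35 ± 0.12, Syt7, a calcium sensor of vesicle release, 0.54 ± 0.19, Wdr61 0.38 ± 0.13 and Adcy1 0.83 ± 0.30, with edgeR adjusted p from 0.132 to 0.181. Rims3, a presynaptic active zone protein, went the other way at -0.51 ± 0.17 (adjusted p = 0.150), with a median of 69.8 CPM in light and 49.4 CPM in dark. In controls the medians of Rims3 were 46.8 CPM in light and 66.8 CPM in dark. Brinp1 and Arl4c, a small GTPase, were the next most negative members, at -0.38 ± 0.17 and -0.28 ± 0.13, both with adjusted p above 0.3. In cohort 1 Rims3 and Brinp1 were the 2 members that passed in the lower direction, at -0.75 and -0.56.

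A rhythm of any phase was tested in Q5A with a 24 h cosinor over all 39 libraries. None of 149 members passed an adjusted p under 0.05 in edgeR, where 0.239% of 11706 genes did, 18 members (12.1%) had an unadjusted p under 0.05, against 14.5% of all genes, and DESeq2 called 4 (2.68%, against 0.991% of all genes). Without the libraries above 20%, 3 members passed in edgeR, where 40 of 11321 genes passed. Usp34 came closest, with an amplitude of 0.30 on the log2 scale, a peak at 21.2 h and an adjusted p of 0.0519. Cryab had an amplitude of 0.58 and a peak at 18.05 h (edgeR adjusted p = 0.0989). The median amplitude was 0.14 over the members and 0.17 over all genes. In cohort 1 alone 19 members passed (12.8%) where 8.34% of all genes did, among them Cryab, Mal, Usp34, Glul and Slc18a2 with peaks between 16.01 and 20.8 h, and Rims3 with a peak at 5.02 h. By group means, 83 of 149 members (55.7%) were highest at ZT16 in Q5A, against 21.7% of all ranked genes. At ZT0 60 members were lowest, as were 26.7% of all ranked genes.

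ZT0 and ZT12, the 2 light transitions, did not enter the statistic of the rule, so the controls could be tested there. These libraries did count in the mean level that the rule required. Over 13 libraries at ZT12 and 9 at ZT0, none of 149 members passed in edgeR, where 0.209% of 9578 genes did, while 12 members (8.05%) had an unadjusted p under 0.05, against 17.3% of all genes, and DESeq2 called 2 (1.34%, against 1.65% of all genes). Of these, 7 members (4.70%) were higher at ZT12 at an unadjusted p under 0.05, against 10.1% of all genes. The median difference was 0.17 over the members and 0.068 over all genes, with 104 of 149 above 0, but it was -0.039 against -0.075 with scaling to the rows with no opposite exon, and 63 were then above 0. So the direction of the group at this transition turned with the scaling. The value also pools 2 viruses that differed at ZT12, where 110 members were highest in GFP and 64 were lowest in H3.3. With virus as a covariate the median was 0.13 over the members and 0.051 over all genes. The transition was not tested within each virus. Without cohort 2 replicate 1 of GFP at ZT12, the library above 20%, the median was 0.066 over the members and 0.057 over all genes, with 90 of 149 above 0.

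Members differed among themselves at this transition. Fam107a ran from 4.44 to 32.4 CPM with a median of 16.2 at ZT0 and from 12.4 to 58.8 CPM with a median of 26.7 at ZT12 in controls, a log2 difference of 0.89 ± 0.26 (SE, edgeR adjusted p = 0.103). It stood higher at ZT12 in GFP, with a median of 50.5 CPM, than in H3.3, with 22.7 CPM, a difference that was not tested. U2af2, a splicing factor that binds the 3′ splice site, Rian, an imprinted long noncoding RNA, Chn1, a GTPase-activating protein for Rac, and Snx3, a sorting nexin, were higher at ZT12 by 0.52 ± 0.15, 0.79 ± 0.27, 0.54 ± 0.21 and 0.49 ± 0.20, with adjusted p from 0.105 to 0.206. Usp34 went the other way. Its control libraries held 396.3 to 490.7 CPM at ZT0 and 261.0 to 417.6 CPM at ZT12, a log2 difference of -0.42 ± 0.12 (SE, edgeR adjusted p = 0.0822). Mal, Adcy1, Cryab and Etfrf1, a factor of mitochondrial electron transfer, were also lower at ZT12, with log2 differences of -0.61 ± 0.19, -0.87 ± 0.32, -0.59 ± 0.24 and -0.32 ± 0.14, with adjusted p from 0.120 to 0.258. The 10 oligodendrocyte markers tested in this contrast were all below 0, with a median of -0.57 and 6 at an unadjusted p under 0.05, and in control libraries their sum without Mal had r = 0.87 with Mal, 0.87 with Cryab and 0.68 with Adcy1 (rho 0.90, 0.87 and 0.73; r = 0.85, 0.85 and 0.64 without the 2 farthest of 71 libraries). The part of oligodendrocyte RNA in these values was not tested.

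The same transition in Q5A, with 7 libraries at ZT12 and 6 at ZT0, gave no member past the threshold in edgeR (0.00854% of 11706 genes passed) or in DESeq2, with 15 (10.1%) at an unadjusted p under 0.05, against 8.27% of all genes. The median difference was 0.15 over the members and 0.067 over all genes, and -0.056 against -0.11 with scaling to the rows with no opposite exon. Without the library above 20%, cohort 2 replicate 1 of Q5A at ZT12, left out of the fit along with that at ZT4, the median was 0.0041 over the members and 0.0056 over all genes, and 75 of 149 members were above 0 instead of 111. Usp34 was again lower at ZT12, with 391.9 to 485.6 CPM at ZT0 and 317.5 to 383.3 CPM at ZT12, groups that did not overlap. Its log2 difference was -0.41 ± 0.16 (SE, edgeR adjusted p = 0.596). Mal was at 0.71 ± 0.40 and Cryab at 0.13 ± 0.36, against the negative values in controls, and the difference between the arms was not tested.

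Q5A and control libraries were compared directly at ZT0 and ZT12. No member and no other gene passed an adjusted p under 0.01 at either time (0% of 9315 and 0% of 10118 genes in edgeR, and none in DESeq2), with 5 members (3.36%) at an unadjusted p under 0.05 at ZT0, against 5.08% of all genes, and 4 (2.68%) at ZT12, against 2.81%. The median difference of the members was 0.013 at ZT0 and 0.044 at ZT12. Cryab differed by -0.28 ± 0.27 (SE) and 0.46 ± 0.29, Usp34 by 0.008 ± 0.10 and 0.026 ± 0.16, and Fam107a by 0.31 ± 0.27 and -0.095 ± 0.29. At ZT12 the 2 controls gave opposite directions. With H3.3 alone as the control the median was 0.36 over the members and 0.046 over all genes, and 132 of 149 members (88.6%) were above 0, against 53.6% of all genes. With GFP alone it was -0.13 against -0.033, and 40 members (26.8%) were above 0, against 46.0% of all genes. Leaving out the libraries above 20% from the comparison with both controls gave a median of -0.042, leaving out that of Q5A alone -0.12, and leaving out that of GFP alone 0.16.

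Members made up 4.24% of the ranked genes, and the lists below held between none and 3 of them. Of 8 ranked heat shock and chaperone genes, which keep proteins folded, 3 were members, namely Hsp90ab1, Hsph1 and the endoplasmic reticulum chaperone Hspa5. In Q5A their log2 differences between dark and light were -0.051 ± 0.11, 0.16 ± 0.16 and -0.093 ± 0.18 (SE). None of the 12 genes of that list tested in Q5A passed, and their median was -0.019. The chromatin list also had 3 members of 19 ranked, the histone deacetylase Hdac5, the remodeller Chd4 and the ATPase Smarca2, with 0.21 ± 0.14, -0.072 ± 0.14 and 0.017 ± 0.11 in Q5A. None of 33 tested passed, with a median of -0.072.

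Genes of the neuronal lists were mostly above 0 in the control contrast, where 61.6% of all ranked genes were. These counts are without scaling. With scaling to the rows with no opposite exon 32.8% of all ranked genes were above 0, and the part of the share in these counts was not tested. Members made up 4.35% of the presynaptic and 5.56% of the postsynaptic genes ranked, near the 4.24% of all ranked genes. Of 23 ranked presynaptic genes, 22 were above 0 in controls with a median of 0.30, and 1 was a member, the vesicle protein gene Syp. Its control medians were 122.7 CPM in light and 186.8 CPM in dark, and in Q5A they were 176.0 and 152.2 CPM, at -0.17 ± 0.15 (SE). Of 18 postsynaptic genes, 16 were above 0 with a median of 0.24, and the scaffold gene Shank3 was the member, at 0.33 ± 0.17 in Q5A. Of 30 ranked ion channel and receptor genes 28 were above 0 and none was a member. No presynaptic (29 tested), postsynaptic (26) or channel gene (51) passed in Q5A, and the medians there were -0.054, 0.019 and -0.11.

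Among signalling genes, of which 24 were ranked, the members included Cdk5r1, for the p35 activator of Cdk5, at -0.22 ± 0.20 (SE) in Q5A, and none of 33 tested passed there. The cytoskeletal members Tubb3, Map4 and Dynll2, of 35 ranked, were at -0.054 ± 0.15, 0.18 ± 0.18 and -0.086 ± 0.11 in Q5A, with none of 36 past the threshold. Of 18 ranked energy genes the members included Ldhb, a lactate dehydrogenase subunit, at 0.14 ± 0.23, and none of 21 tested passed.

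The remaining lists held 1 or 2 members or none. Rpl32 and Rplp1, of 12 ranked ribosomal protein genes, were at -0.078 ± 0.18 and -0.047 ± 0.17 in Q5A, and 1 of 20 tested rose, the gene Rpl18, which is no member. Hnrnpu and Elavl3, a neuronal RNA-binding protein, of 24 RNA processing genes, were at 0.18 ± 0.09 and 0.14 ± 0.11, and 1 of 37 fell, Son, also no member. Usp34 and Uba1, for a ubiquitin-activating enzyme and at -0.23 ± 0.14, were the members among 14 ranked ubiquitin genes, with none of 20 past the threshold. Atp5b, of 12 oxidative phosphorylation genes, was at -0.022 ± 0.16 with none of 21 past the threshold, and Rian, of 6 long noncoding RNAs, at -0.16 ± 0.23 with none of 9. Immediate early (1 ranked), glucocorticoid-responsive (1 ranked) and cholesterol synthesis genes (4 ranked) held no member, and none of 9, 10 and 13 genes of those lists passed in Q5A. Of the 20 clock genes 6 were ranked and none is a member (the rule leaves out Nr1d1, Dbp, Clock and Per1 by name), and none of 15 tested clock genes passed.

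Markers of the cell types in the dissected tissue give the setting of these values. The 8 histaminergic markers summed to a median of 154.7 CPM in light and 204.5 CPM in dark control libraries, and to 211.2 and 205.9 CPM in Q5A ones. The 10 astrocyte markers, among which Fgfr3 is a member, summed to medians of 394.7 and 570.1 CPM in controls and 553.1 and 540.1 CPM in Q5A. Both sums were thus lower in light control libraries than in the other 3 groups, with ranges that overlapped. The astrocyte sum had r = 0.91 with the share of counts in rows with no opposite exon. Microglial markers had medians between 271.0 and 296.3 CPM in all 4 groups, and endothelial markers between 25.3 and 32.5 CPM. None of the markers on these lists was at 0 in every library. Ependymal markers had medians between 337 and 364.8 CPM, hypothalamic peptide markers between 124.7 and 217.5 CPM and pituitary markers between 48.5 and 61.6 CPM. In 1 library, cohort 1 replicate 3 of Q5A at ZT20, striatal markers summed to 1057 CPM against medians of 68.8 to 80.9 CPM in the groups, and without it Cryab was at 1.08 with an edgeR adjusted p of 0.0460.

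Promoter sequences, 300 bases each with 250 before and 50 after the start, were at hand from RefSeq (build GRCm38.p6) for 118 of the 149 members. The E-box CACGTG, the site of CLOCK and BMAL1, was found in 10 of them (8.5%) and in 9.76% of the 6990 tested genes with a promoter. The ROR element core AGGTCA, or TGACCT on the other strand, was in 15 (12.7%) and 11.7%, and the glucocorticoid response element core TGTTCT or AGAACA in 14 (11.9%) and 11.4%. The cAMP response element TGACGTCA was in 2 (1.69%) and 3.25%, and a D-box (TTATGTAA, TTACATAA or TTACGTAA) in 1 (0.85%) and 0.644%. Each share of the members was thus close to that of all genes with a promoter, by description and with no test. Shown, as 1 example or 2 of each clock or cAMP motif among the members described above, are 5 promoters with the motifs in capitals, 5′ to 3′ on the strand of the gene.
Aktip, chr8:91133978-91134277, minus strand, D-box: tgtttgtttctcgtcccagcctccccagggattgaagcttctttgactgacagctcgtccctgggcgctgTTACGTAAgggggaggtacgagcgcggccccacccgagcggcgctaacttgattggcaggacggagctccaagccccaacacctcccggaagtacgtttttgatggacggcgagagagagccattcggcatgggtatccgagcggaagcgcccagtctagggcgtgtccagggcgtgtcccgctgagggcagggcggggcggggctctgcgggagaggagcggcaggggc
Hdac5, chr11:102230123-102230422, minus strand, E-box: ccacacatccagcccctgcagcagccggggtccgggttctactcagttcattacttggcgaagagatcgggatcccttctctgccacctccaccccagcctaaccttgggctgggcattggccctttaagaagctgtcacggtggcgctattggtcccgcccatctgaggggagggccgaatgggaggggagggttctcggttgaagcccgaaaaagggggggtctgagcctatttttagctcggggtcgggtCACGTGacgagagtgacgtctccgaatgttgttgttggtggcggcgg
Adcy1, chr11:7063183-7063482, plus strand, ROR core and E-box, which share bases: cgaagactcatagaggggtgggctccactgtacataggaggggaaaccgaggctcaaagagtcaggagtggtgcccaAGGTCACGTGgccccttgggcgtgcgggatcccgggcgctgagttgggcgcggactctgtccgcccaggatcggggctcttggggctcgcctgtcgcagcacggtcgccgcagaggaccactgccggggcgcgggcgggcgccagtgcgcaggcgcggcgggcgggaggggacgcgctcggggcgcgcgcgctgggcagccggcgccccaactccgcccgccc
Glul, chr1:153899679-153899978, plus strand, ROR core: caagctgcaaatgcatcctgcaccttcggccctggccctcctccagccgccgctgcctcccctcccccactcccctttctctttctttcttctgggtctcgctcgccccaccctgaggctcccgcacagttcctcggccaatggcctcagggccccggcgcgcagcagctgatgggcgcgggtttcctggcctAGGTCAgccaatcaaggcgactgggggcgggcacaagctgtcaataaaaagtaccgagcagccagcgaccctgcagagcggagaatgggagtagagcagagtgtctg
Slc18a2, chr19:59260628-59260927, plus strand, glucocorticoid core and cAMP response element: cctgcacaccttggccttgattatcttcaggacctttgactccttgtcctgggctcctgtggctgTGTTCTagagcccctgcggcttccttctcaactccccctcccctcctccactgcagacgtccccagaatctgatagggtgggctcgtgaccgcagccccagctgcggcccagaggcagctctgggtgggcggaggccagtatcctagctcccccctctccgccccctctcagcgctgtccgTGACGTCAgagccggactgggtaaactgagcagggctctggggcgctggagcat
Counted from the first base printed, with the start of the gene at base 251, the E-box of Hdac5 begins at base 254 and the cAMP response element of Slc18a2 at base 247. The motifs of Aktip and Adcy1 lie farther upstream, from base 71 and base 78. Hsph1 and Uba1 also held an E-box, and Hspa5 and Ldhb the ROR core. Usp34, Tiam2 and Fam107a held none of the motifs in these windows.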

How the data were processed

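The authors deposited 1 table of read counts per library. Per the labels and the study's methods, stranded mRNA libraries were demultiplexed with bcl2fastq and aligned to GRCm38 with STAR 2.7.11b. Reads were counted per gene name over exons with HTSeq 2.0.5 in the stranded mode. The study normalised counts with DESeq2 1.44.0 and tested rhythm with JTKcycle, which was not run here. It used DESeq2 tests to compare GFP with H3.3 before pooling them. The kit's first read runs against the transcript, and between 3.49 and 5.63% of uniquely placed reads were counted in gene rows. The 5 rows that are not genes were left out. Of 111 tables, 2 of Q5A at ZT4 differed in 3 rows only, below sampling noise, and their mean entered as 1 library, which left 110. A further 18 files were mapped to no sample and are not used here.

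Counts were tested with edgeR 4.0.16 (quasi-likelihood, TMM factors, low counts filtered with filterByExpr) in R 4.3.3, with Benjamini-Hochberg adjustment over all genes tested and thresholds of 0.05 for time and 0.01 for virus. Alternatives were DESeq2 1.42.0, other size factors, no filter, covariates, cohort 1 alone, a replicate block and each library left out in turn. Scaling to the rows with no opposite exon, the share as a covariate, leaving out libraries above 20% and GFP alone as the control were added after the data were seen. The fits were tested on simulated data. Opposite exons were found with bedtools 2.31.1. Each library is 1 animal, and p-values measure the spread between these samples.

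Members and gene lists were chosen with earlier results of these data known. The text names, among members, the 5 largest statistics and the 5 highest levels, the 3 on each side of the limit, the 10 smallest p for dark minus light in Q5A, the 5 smallest p in each direction for ZT12 minus ZT0 in controls, the 3 most negative Q5A differences, the members of each list and those past a threshold that fewer than 6 members passed. Other genes named beside these were chosen after their values were seen. Some members of these lists are not reported here.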

Additional observations from a re-analysis of the deposited data

Results flagged for a closer look

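The member score, the share of counts in rows with no opposite exon, Cryab and Usp34 were checked within all 18 virus-by-ZT groups, 72 checks in all, and 8 values from 7 libraries stood far from the rest of their group, where chance gives about 1 in 20. The member score of cohort 2 replicate 1 of Q5A at ZT12 was 6.76, with the others of that group between 5.25 and 5.82, and its share was 27.8%, with the others between 9.84 and 13.9%. In cohort 3 replicate 1 of H3.3 at ZT4 the share was 19.5%, with the others between 9.41 and 11.8%. Cryab stood high in 3 libraries, all of them replicate 1 of cohort 3. These were Q5A at ZT4 (52.6 CPM, others 14.5 to 25.3), H3.3 at ZT8 (79.0 CPM, others 8.41 to 21.5) and H3.3 at ZT12 (43.8 CPM, others 9.10 to 22.8). Usp34 stood high in cohort 1 replicate 5 of GFP at ZT4 (445.3 CPM, others 330.9 to 351.4) and in cohort 1 replicate 1 of GFP at ZT20 (561.7 CPM, others 371.2 to 424).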

How the results depend on the processing

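Among the counts of members recomputed under alternatives other than leaving out a library, 45 stayed within 1.5 times the reported count and 17 moved. Signs of single genes were compared only among those named for dark minus light in Q5A or ZT12 minus ZT0 in controls. None of these reversed. Medians over the members did change sign. With scaling, ZT12 minus ZT0 went from 0.17 to -0.039 in controls and from 0.15 to -0.056 in Q5A. Q5A minus controls at ZT12 went from 0.044 to -0.042 without the libraries above 20%. For dark minus light in Q5A, 1 member passed as reported (62 of 11706 genes), against 21 in cohort 1 alone (1167 of 11355 genes). With the members chosen in cohort 1, 6 passed (62 of 11706 genes). The count was 5 with no filter on low counts (475 of 32403 genes) and 5 with the share as a covariate (242 of 11706). It was 2 with scaling to the rows with no opposite exon (28 of 11706 genes) and 2 without the libraries above 20% (111 of 11321). With members chosen at a mean of at least 50 CPM it was also 2 (62 of 11706 genes). With the replicate block it was 0 (19 genes in all), where Cryab was at 1.06 with an adjusted p of 0.0632 in edgeR. The numbers do not pair the mice by the labels, and the median correlation of same-numbered Q5A libraries lay between -0.12 and 0.098. In controls it lay between -0.034 and 0.33, and was highest in cohort 3 replicate 1, where all 6 pairs were above 0.1. The block changed no other count of members. For the cosinor, 0 (28 of 11706 genes) became 4 with DESeq2 (116 of 11706), 1 with no filter (186 of 32403) and 19 in cohort 1 (947 of 11355). It became 2 with the share as a covariate (69 of 11706 genes) and 3 without the libraries above 20% (40 of 11321). For ZT12 minus ZT0 in controls, 0 became 2 with DESeq2, with cohort as a covariate and with the share as a covariate. Of 9578 genes, 20 passed as reported, and 158, 286 and 48 did in these settings. For Q5A minus controls at ZT0, 0 became 1 in cohort 1 (38 of 9701 genes), where Mal was at -1.31. The cause of these moves was not tested, and cohort 1 alone also has fewer libraries. With each library left out in turn the counts ran from 0 to 1, from 0 to 2 and from 0 to 2 in the first 3 comparisons and stayed at 0 in the other 3. Members under 50 counts rest on the fewest reads, and what this did to the calls was not tested.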
